A study of Mus musculus with 19 samples.

Results

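The vertebrate neuromuscular synapse was followed here through 10 genes: the subunits of the muscle acetylcholine receptor (Chrna1, Chrnb1, Chrnd, Chrne and Chrng), the components of the agrin signalling pathway that cluster it (Agrn, Lrp4, Musk and Rapsn), and Dach2, a transcriptional co-repressor of the denervation response. The genes were chosen by name, and every probe carrying one of these names was used, which gave 18 probes of 41174 gene probes on the array and 10 genes of 27425 gene names. Single-colour microarrays were hybridised with 100 ng of Cy3-labelled RNA each, 19 arrays in all. The mouse C2C12 muscle cell line was stably transfected either with empty plasmids (C2C12 control cells, n = 6) or with plasmids encoding human wild-type HDAC4 and HDAC5, which are class IIa histone deacetylases (HDAC4 and 5 cells, n = 6). Both lines were kept under hygromycin B and geneticin (500 µg/ml) and were collected 48 h after seeding as myoblasts, so the antibiotics and the plasmid backbone were shared by both groups. Whether each line was a clone or a pool is not given in the sources used here. Soleus muscle came from male mice of 12 weeks on the C57BL/6J background after a 5 h fast. These were either heterozygous db -/+ littermates (soleus control, n = 3) or db +/+ mice, which lack functional leptin receptor and become obese (soleus db/db, n = 4). Nothing in the labels places the samples in separate cultures, and the study's text states fewer biological replicates per group than the arrays labelled for each line. The p-values therefore measure only the spread between these arrays, some of which may share a culture. In such bulk RNA, fewer cells of a type and less RNA per cell cannot be told apart.

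At the neuromuscular synapse, agrin released by the motor neuron binds LRP4 on the muscle membrane. LRP4 then activates the receptor tyrosine kinase MuSK, and rapsyn anchors the acetylcholine receptors in dense clusters beneath the nerve terminal. Fetal receptors carry the gamma subunit, which the epsilon subunit replaces in innervated adult muscle. After denervation HDAC4 and DACH2 act on myogenin, which in turn drives receptor subunit genes and Musk along the whole fibre. The myogenic factors MyoD and myogenin act on these genes through E-boxes, and the ETS factor GABP acts on N-boxes in genes transcribed by the nuclei beneath the synapse.

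All levels are given as log2 intensity minus the 75th percentile of the same array, so 0 is the 75th percentile, and differences are read only between levels of the same probe on different arrays. Where markers of a cell type are summed, or the brightest of them is named, this describes signal and not amounts of RNA. The 75th percentile ranged from 538 to 1639 intensity units in C2C12 control cells (median 715), from 423 to 797 in HDAC4 and 5 cells (median 703), from 148 to 497 in soleus control muscle (median 186) and from 164 to 529 in soleus db/db muscle (median 338). Probes well above background made up 53.1 to 57.5% of an array in C2C12 control cells, 49.7 to 56.7% in HDAC4 and 5 cells, 46.8 to 50.1% in soleus control muscle and 48.3 to 54.8% in soleus db/db muscle. On this scale the background limit, the lowest signal among probes well above background, lay between -6.13 and -4.45 on C2C12 arrays and between -4.28 and -3.27 on soleus arrays. The number of arrays limits the precision of every value.

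The overexpressed genes and the identity of the cells were examined first. Mouse Hdac4 had a level of 0.24 at the lowest, 0.36 at the median and 0.51 at the highest in C2C12 control cells, and 0.19, 0.33 and 0.52 in HDAC4 and 5 cells, a difference of -0.04 ± 0.07 (SE) with a limma adjusted p of 0.624. Mouse Hdac5 had a level of 1.95, 2.12 and 2.79 in C2C12 control cells and 2.91, 3.60 and 4.53 in HDAC4 and 5 cells, which was 2.69-fold higher (limma adjusted p = 0.00036). The plasmids encode the human proteins while the probes are of mouse sequence, and whether the probes detect the human transcripts was not tested. Of 7 myoblast markers, 5 were measured in C2C12 control cells and all 5 were reduced in HDAC4 and 5 cells, against 31.0% of all genes lower. Their median log2 difference was -8.44, against 0.06 over the 14017 genes tested with 1 probe per gene. Myod1, Myog and Msc were well above background on 0, 4 and 4 of 6 HDAC4 and 5 arrays. They were tested through control cells alone, so the count and the median are a description. The myogenic determination factor Myod1 had levels of 2.68 to 2.92 in C2C12 control cells and was at least 260-fold lower in HDAC4 and 5 cells, where none of the 6 arrays had it well above background. Cdh15, the muscle cadherin, was at least 50.9-fold lower, with 4 of the 5 C2C12 control spots saturated. Des, the muscle intermediate filament gene, fell by at least 8.44 on the log2 scale, with 2 of 6 C2C12 control spots saturated. The satellite cell genes Pax7 and Myf5 were not well above background in either line. The log2 of the sum of all 7 markers had a median of 7.38 in C2C12 control cells, over the 5 arrays that kept every spot, and of 0.64 in the 6 arrays of HDAC4 and 5 cells, the former a lower bound because of saturated Cdh15 and Des spots. C2C12 control cells also held signal for genes of differentiating muscle: 4 of 4 embryonic muscle markers and 8 of 9 fibre markers were well above background on every array, with mean levels of 2.63 for the embryonic myosin Myh3 and 3.95 for the skeletal actin Acta1. Most markers that define the labelled cell type were thus far lower in HDAC4 and 5 cells, and these moved together with the synapse genes described next. Their part in those differences was not tested.

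The comparison of HDAC4 and 5 cells with C2C12 control cells asked how the synapse genes differ in cells transfected with the HDAC4 and HDAC5 plasmids. The genes Chrna1, Chrnb1, Chrnd, Chrng, Lrp4 and Rapsn fell, with or without the normexp background correction. Musk was called lower without that correction only, Agrn rose, Chrne did not pass the test, and Dach2 was not measurable in either line. Of the 18 probes, 12 from 9 genes passed the filter on dim signal, and 11 of these passed an adjusted p of 0.05 in limma, against 66.3% of all probes tested. Both Chrng probes and Lrp4 passed the filter only through control cells, where they are high, so the counts and the median over these probes are a description. Among the 9 probes well above background on every array of both lines, 8 were called, against 66.1% of all such probes. The split by direction was 10 lower and 1 higher, where 30.5% of all probes tested were lower and 35.8% higher. The median log2 difference over the 12 probes was -3.24, against 0.06 over all 21432 probes tested, and with no filter it was -0.76 over all 18 probes, against 0.28. The groups did not overlap for 10 of the 12 probes, which was so for 49.9% of all probes tested. Both Chrna1 probes, both Chrng probes, Chrnb1, Chrnd, Lrp4 and Rapsn fell by at least 1 on the log2 scale, as did 11.4% of all probes tested. The other 6 probes, the second probe of Chrne, Agrn and Lrp4 and all 3 of Dach2, were too dim in both lines to be tested. With the arrays of a line that shared a slide averaged, 3 values against 3, an alternative chosen after seeing the data, the count of called synapse probes was again 11, against 54.1% of all probes tested.

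**Figure D1:**
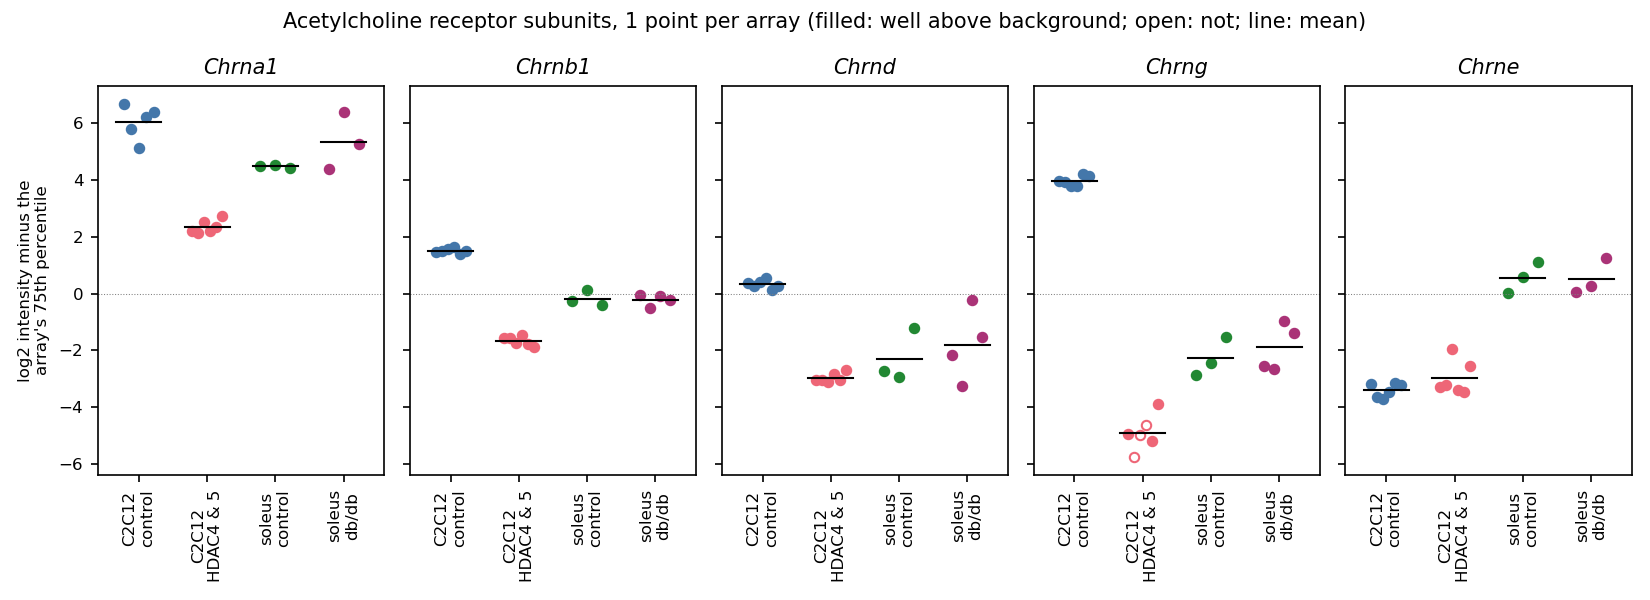
Acetylcholine receptor subunits, 1 panel per gene, with the log2 intensity minus the array's 75th percentile on the y axis and 1 point per array for the brightest tested probe, in 4 groups on the x axis. Filled points are well above background, open points are not, and lines are group means; Chrng sits between 3.78 and 4.20 in C2C12 control cells and between -5.76 and -3.87 in HDAC4 and 5 cells, while Chrne is higher in both soleus groups than in both lines.

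Among the receptor subunits, Chrng, which encodes the fetal gamma subunit, fell with both of its probes. Its first probe had levels of 3.78, 3.96 and 4.20 (lowest, median and highest of 6) in C2C12 control cells and of -5.76, -4.96 and -3.87 in HDAC4 and 5 cells, where 3 of 6 arrays were well above background. The groups were far apart, with a log2 difference of -8.87 ± 0.24 (SE, limma adjusted p = 2.30e-12), a p that describes a probe tested through control cells alone. With each HDAC4 and 5 array raised to its background limit where it lay below, the mean was 456-fold lower. An exact two-sided permutation test over the 12 arrays gave p = 0.00216, the smallest it can give with 6 against 6, counting each array as a sample. With 3 values per line, 1 per slide, that test cannot go below 0.1. The second Chrng probe, which spans spliced sequence, went from -0.60 ± 0.22 (SD, n = 6) to -5.21 ± 0.33 (SD, n = 6), and 1 of 6 HDAC4 and 5 arrays was well above background. With each HDAC4 and 5 array raised to its background limit where it lay below, the second probe was 21.9-fold lower, and since most of these arrays were at background for it, the sizes of the falls of the 2 probes were not compared. With the normexp background correction, whose added offset pulls dim values together, the same probes fell by 6.53 and 2.12.

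Chrna1 encodes the alpha subunit, which carries most of the acetylcholine binding site. Its first probe was saturated on all 5 C2C12 control arrays that gave a value, 1 spot having been dropped as an outlier by the scanner software, so it was at least 12.9-fold lower in HDAC4 and 5 cells. Its second probe had a mean of 4.65 ± 0.24 (SD, n = 4, with 2 spots dropped) in C2C12 control cells, and in HDAC4 and 5 cells it was -1.15 ± 0.29 (SD, n = 6). This was a 55.7-fold lower mean, with a log2 difference of -5.80 ± 0.16 (SE, limma adjusted p = 5.68e-11; exact two-sided permutation p = 0.00952).

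Chrnb1 and Chrnd, the genes of the beta and delta subunits that fetal and adult receptors share, fell by similar amounts. Chrnb1 had levels of 1.39, 1.50 and 1.65 in C2C12 control cells and of -1.89, -1.65 and -1.46 in HDAC4 and 5 cells, a 9.08-fold lower mean (limma adjusted p = 6.75e-13). Chrnd had levels of 0.14, 0.32 and 0.54 in C2C12 control cells and of -3.10, -3.05 and -2.70 in HDAC4 and 5 cells, a 9.83-fold lower mean (limma adjusted p = 1.75e-12). Neither gene's groups overlapped, and exact two-sided permutation tests gave p = 0.00216 for each. Under normexp the Chrnd difference was -2.28 in place of -3.30.

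Chrne, the gene of the adult epsilon subunit, was dim in both lines. Its first probe had levels of -3.73, -3.35 and -3.15 in C2C12 control cells and of -3.47, -3.27 and -1.96 in HDAC4 and 5 cells. The groups overlapped, and the difference of 0.42 ± 0.24 (SE) did not pass the test (limma adjusted p = 0.146). Each of the other 4 subunit genes fell in the same cells. The difference between Chrne and those genes was not tested.

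Since 4 of the 5 receptor subunit genes fell in the same cells, the 250 bases before the annotated starts of the synapse genes were searched for the E-box (CANNTG, which reads the same on both strands, and its form CAGCTG, which is one of the E-boxes) and for the N-box core (CCGGAA, both strands). RefSeq promoters on GRCm38.p6 were matched by symbol for 7 of the 10 genes (not for Chrnd, Rapsn and Lrp4), with 9 promoters, of which 7 held an E-box and 1 an N-box. Over all 32851 mouse promoters of this length, 66.2% held an E-box, 12.2% held at least 3, 13.0% held CAGCTG, 1.26% held it at least 2 times, and 12.0% held the N-box core. The promoters of Chrng, Chrna1, Chrnb1 and Musk each held 3 E-boxes. Those of Chrng and Chrna1 held CAGCTG 2 times each, at 155 and 132 bases before the Chrng start and at 92 and 44 bases before the Chrna1 start. The Chrne promoter held 1 E-box at 138 bases and the N-box core at 76 bases before its start. A match is only a run of letters, and binding was not measured. The sequences that follow show the fetal and adult receptor subunits beside Musk, with E-boxes and the N-box core in capitals. They lie at chr1:87205561-87205810 on the plus strand (Chrng), chr2:73580339-73580588 on the minus strand (Chrna1), chr11:70619195-70619444 on the minus strand (Chrne) and chr4:58285712-58285961 on the plus strand (Musk), and are written 5′ to 3′ in the direction of transcription.
Chrng: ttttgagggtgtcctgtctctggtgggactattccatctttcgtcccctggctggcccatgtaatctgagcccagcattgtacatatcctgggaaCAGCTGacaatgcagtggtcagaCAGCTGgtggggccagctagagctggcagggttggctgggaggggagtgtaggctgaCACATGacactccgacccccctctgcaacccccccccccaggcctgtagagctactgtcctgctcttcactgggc
Chrna1: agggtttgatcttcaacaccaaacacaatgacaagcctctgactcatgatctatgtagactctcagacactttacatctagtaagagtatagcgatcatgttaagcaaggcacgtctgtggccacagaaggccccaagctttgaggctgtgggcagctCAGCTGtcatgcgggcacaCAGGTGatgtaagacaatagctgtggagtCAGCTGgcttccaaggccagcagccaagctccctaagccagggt
Chrne: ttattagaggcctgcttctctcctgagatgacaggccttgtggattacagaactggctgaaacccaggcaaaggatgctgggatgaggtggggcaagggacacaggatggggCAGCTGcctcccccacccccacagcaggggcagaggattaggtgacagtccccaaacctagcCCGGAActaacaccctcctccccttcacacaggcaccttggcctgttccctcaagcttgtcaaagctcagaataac
Musk: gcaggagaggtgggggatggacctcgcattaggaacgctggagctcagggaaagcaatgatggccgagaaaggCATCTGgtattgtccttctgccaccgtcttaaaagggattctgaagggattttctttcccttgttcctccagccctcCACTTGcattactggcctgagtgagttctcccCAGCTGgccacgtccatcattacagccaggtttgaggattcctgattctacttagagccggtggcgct

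The agrin pathway genes did not move one way. Agrn, the gene of the organising ligand, was the single synapse gene that rose. Its first probe had levels of 3.51, 3.77 and 4.01 in C2C12 control cells and of 5.14, 5.33 and 5.48 in the 4 HDAC4 and 5 arrays that kept the spot, 2 having been dropped as outliers. The groups did not overlap, and the mean was 2.92-fold higher (log2 difference 1.54 ± 0.10 SE, limma adjusted p = 1.45e-07; exact two-sided permutation p = 0.00952).

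Lrp4, the gene of the agrin receptor, fell. It had levels of -0.33, -0.21 and -0.09 in C2C12 control cells and of -6.00, -5.83 and -5.37 in HDAC4 and 5 cells, where 2 of 6 arrays were well above background. The log2 difference was -5.54 ± 0.10 (SE, limma adjusted p = 5.65e-14), and under normexp it was -2.65. This probe, too, entered the test through control cells alone, and its p is a description. With each HDAC4 and 5 array at its background limit or above, the mean was 31.1-fold lower, so the size depends on how dim signal is treated. Rapsn, the gene of the scaffold protein rapsyn, had levels of 2.48, 2.54 and 2.65 in C2C12 control cells and, over the 6 HDAC4 and 5 arrays, a mean of 0.04. This was a 5.71-fold lower mean with the smallest spread of the tested synapse probes, at SDs of 0.07 and 0.04 (limma adjusted p = 1.06e-13). All 6 HDAC4 and 5 arrays were well above background for Rapsn, so this value does not rest on the background limit.

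Musk, the gene of the kinase that receives the agrin signal, was already dim in C2C12 control cells and differed little. Its first probe had levels of -2.67, -2.48 and -2.31 in C2C12 control cells and of -3.35, -3.11 and -3.08 in HDAC4 and 5 cells, a 1.59-fold lower mean (limma adjusted p = 3.20e-06). The second probe overlapped between groups and was 1.37-fold lower (limma adjusted p = 0.00355). Under normexp neither probe passed the test, with differences of -0.01 (adjusted p = 0.979) and 0.13 (adjusted p = 0.675), so the direction for Musk in these cells depends on how dim signal is treated. No other synapse probe lost its call in this comparison under the alternatives that tested it.

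The probe sequences behind the fetal subunit, the kinase and the scaffold are given here, since the results turn on them. On the mm9 build the second Chrng probe lies at chr1:89106072-89106353 on the plus strand, its 60 bases spread over 282 bases of genome and so across a splice junction. The first Musk probe lies at chr4:58386210-58386269 on the plus strand, and the Rapsn probe at chr2:90883848-90885002 on the plus strand, spread over 1155 bases. An annotation of exons on mm9 was not used here.
Chrng probe: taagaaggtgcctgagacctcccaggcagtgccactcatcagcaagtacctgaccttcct
Musk probe: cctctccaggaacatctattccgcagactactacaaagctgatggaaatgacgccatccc
Rapsn probe: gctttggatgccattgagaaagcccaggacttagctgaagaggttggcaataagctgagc

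**Figure D2:**
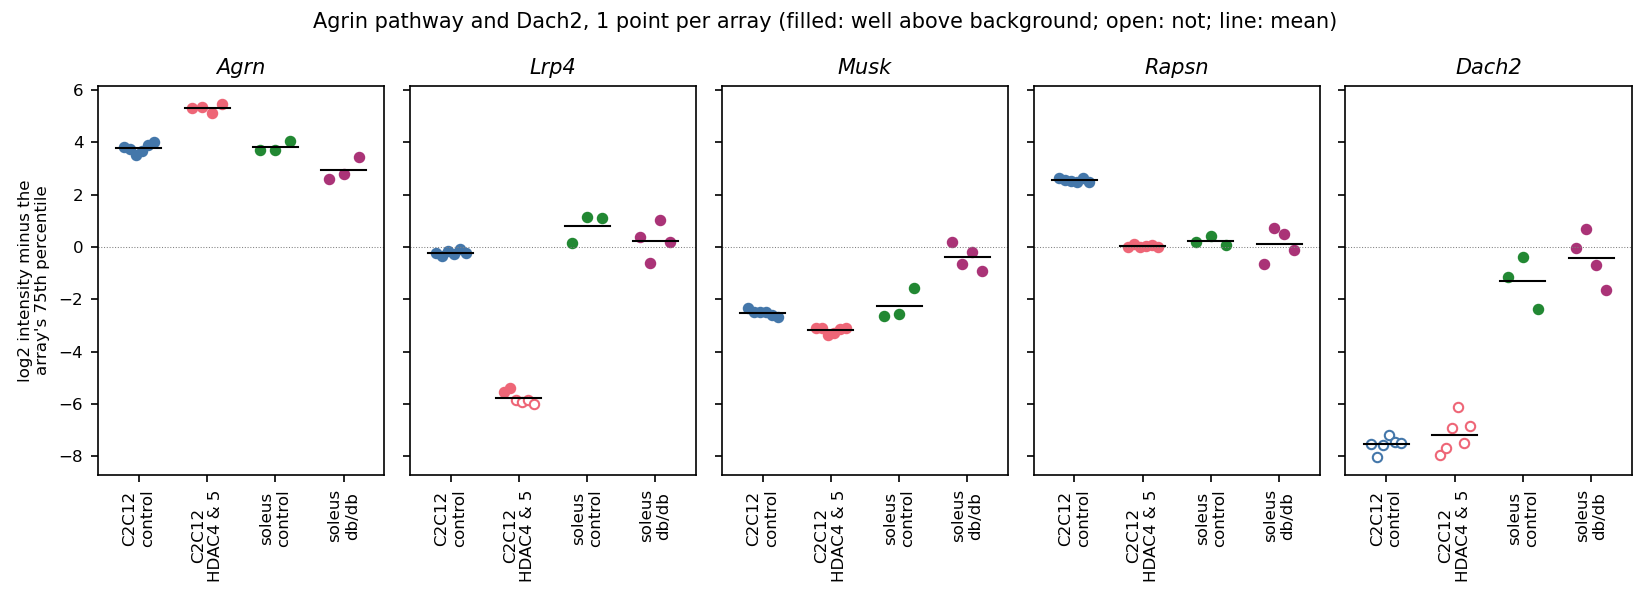
Agrin pathway genes and Dach2, 1 panel per gene, with the log2 intensity minus the array's 75th percentile on the y axis and 1 point per array for the brightest tested probe, in 4 groups on the x axis (filled, well above background; open, not; line, mean). Agrn is the single panel in which HDAC4 and 5 cells, at 5.14 to 5.48, lie above C2C12 control cells, and all Dach2 points of both lines are open.

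Within each of the 3 slides, which held arrays of both lines, every called probe kept its sign. The first Chrng probe ranged from -9.31 to -8.58 across slides, Lrp4 from -5.77 to -5.18, Rapsn from -2.53 to -2.49, Agrn from 1.52 to 1.55 and the first Musk probe from -0.85 to -0.47.

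**Figure D3:**
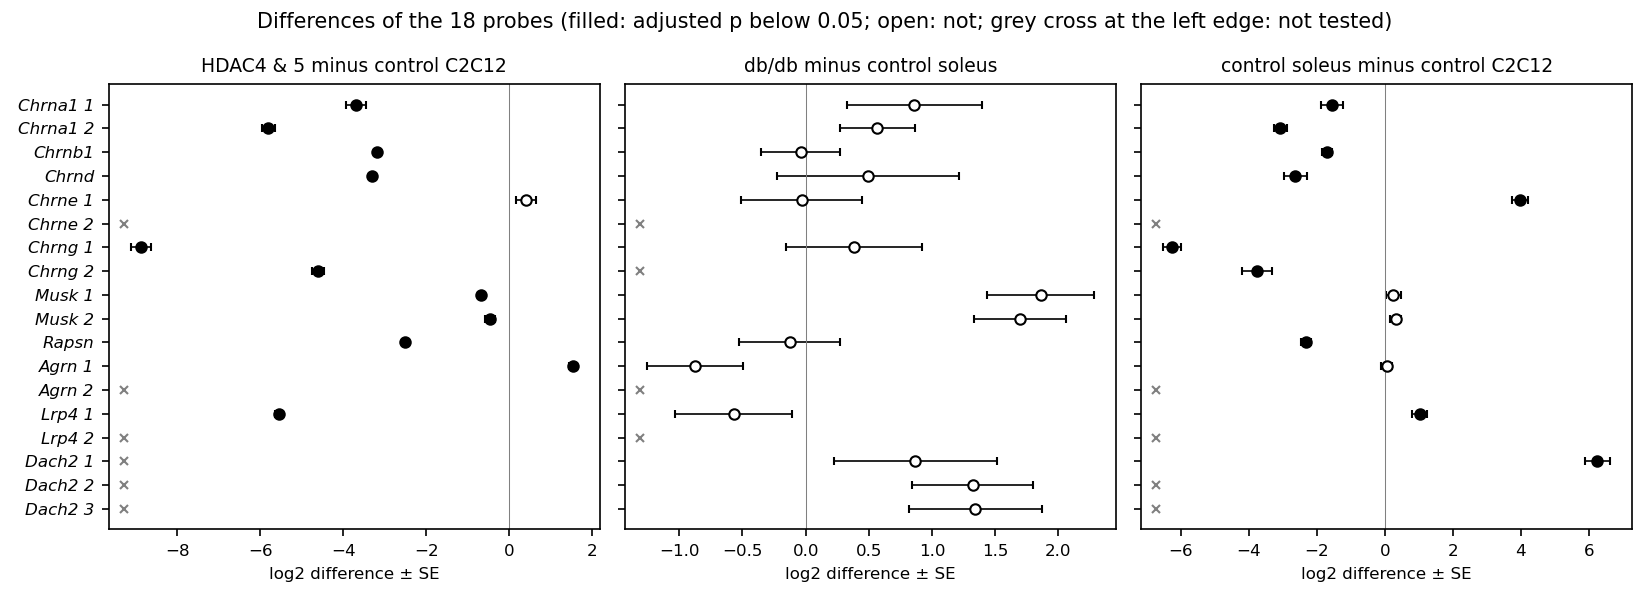
Log2 difference of each tested synapse probe on the x axis with its standard error from limma, 1 row per probe and 1 panel per comparison, whose x ranges differ. Filled points pass an adjusted p of 0.05 and open points do not, and a grey cross at the left edge marks a probe that was not tested; the first panel runs from -8.87 for Chrng to 1.54 for Agrn, and no point of the soleus panel is filled.

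Genes that work beside these members were described from lists chosen for their known roles. Of 27 genes of MuSK and agrin signalling, 22 were tested, of which 6 rose, 9 fell and 7 did not pass the test, with a median of -0.04 beside 0.06 over all genes and 66.6% of all genes called (35.6% higher and 31.0% lower). Dok7, the cytoplasmic activator of MuSK, went from levels of 4.04 to 4.31 (n = 4, with 2 spots dropped) to levels of -3.25 to -2.74 (n = 6), a fall by 7.07 on the log2 scale. The kinases Fyn and Cdk5 fell by 1.52 and 1.41, whereas Alg2, Fntb and Abl2 rose by 0.73, 0.69 and 0.62. Acetylcholinesterase (Ache) and its collagen tail (Colq) were not well above background in either line.

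Of 12 genes of the neuregulin and ETS pathway of synaptic nuclei, 11 were tested, of which 5 rose and 4 fell, against 35.6% of all genes higher and 31.0% lower, with a median of 0.11. Erbb3, a neuregulin receptor, fell by 4.64 (3 of 6 HDAC4 and 5 arrays were above background) and the ETS factor Etv4 by 3.32, while the ligand Nrg1 rose by 1.45 and the kinase Mapk8 by 1.21. On the postsynaptic scaffold and membrane list (23 genes), 15 of 20 tested genes were lower and 1 higher, against 31.0% of all genes lower and 35.6% higher. Their median was -0.92. Erbb3 on the list before and Nid2 on this one entered the test through control cells alone. The counts and medians of both lists are therefore a description. Nid2, a basement membrane nidogen, fell by 6.12 (3 of 6 HDAC4 and 5 arrays were above background), the laminin receptor Itga7 by 3.93 and the laminin chain Lama5 by 2.90. Dtnb, a dystrobrevin, rose by 1.44.

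Of 19 genes of the denervation response, 18 were tested, of which 13 fell and 2 rose, against 66.6% of all genes called (31.0% lower and 35.6% higher), with a median of -1.31 beside 0.06 over all genes. With the stricter filter, which tests fewer genes, 9 in place of 15 were called, where 66.1% of all probes tested were called. The number of the list's genes tested with that filter is not given here, so these values are not compared. Myog, the gene of myogenin, fell by 9.66, from levels of 4.32 to 4.67 to levels of -5.62 to -4.68, where 4 of 6 arrays were well above background. Myod1 fell as given above, with 0 of 6 HDAC4 and 5 arrays well above background. Both genes entered the test through control cells alone, so the counts and the median of this list are a description. The genes that rose were Hdac5 and Gadd45a, the latter by 0.83. Human HDAC5 was itself transfected into these cells, and whether the mouse Hdac5 probe detects that transcript was not tested. For the first Dach2 probe no array of either line was well above background, and each of its other probes was above background on at most 1 of 6 arrays of a line. None of the 11 nicotinic subunits outside the muscle receptor was bright enough to be tested.

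**Figure D4:**
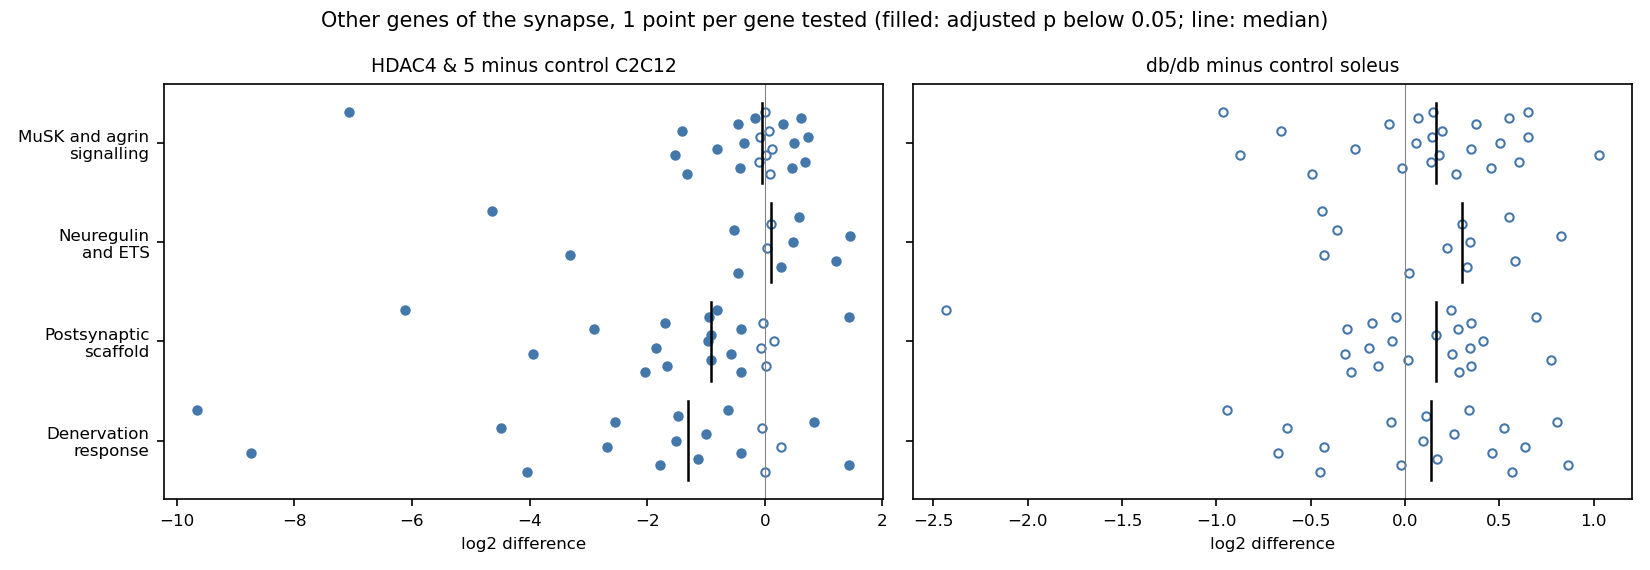
Log2 difference of each tested gene of 4 pathway lists on the x axis, 1 point per gene and a line at the median, with lists as rows and 1 panel for each of the 2 comparisons, whose x ranges differ. Filled points pass an adjusted p of 0.05; in C2C12 cells 15 of 20 tested postsynaptic genes and 13 of 18 tested denervation genes lie below 0 and are filled, and no point of the soleus panel is filled.

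Markers of other cells also differed between the lines. All 4 embryonic muscle genes and 7 of 8 tested fibre genes fell, while the slow myosin Myh7 rose by 1.45. Over all genes 66.6% were called, 31.0% lower and 35.6% higher. Ckm, Tnni1 and Myl3 were well above background on 0 of 6 HDAC4 and 5 arrays, Myh3 on 1 and Myh8 on 2. Tnnt1 and Mb were so on 5 of 6. All of these genes were tested through control cells alone, so the counts are a description. Among 3 tested fibroblast markers of 4, Col1a1 was 10.2-fold higher and Pdgfra 4.54-fold higher, and Dcn was 2.48-fold lower. The log2 of the sum of all 4 went from between 2.36 and 2.62 in C2C12 control cells to between 4.51 and 4.70 in HDAC4 and 5 cells. Of 7 Schwann cell markers 5 were tested, with Pmp22 (the brightest) and Mbp higher, and Ngfr and S100b lower. Of 4 macrophage markers 2 were tested, of which Cd14 (the brightest) was 3.12-fold higher and Cd68 1.33-fold lower, and none of the endothelial or adipocyte markers was bright enough to be tested. The part of these differences in those of the synapse genes was not tested.

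In soleus muscle, db/db mice were compared with their heterozygous littermates to ask whether the genes differ in the muscle of obese mice. All 9 fibre markers were well above background on every soleus array. No synapse probe passed the test: 14 probes from all 10 genes were tested and 0 were called, where limma called 0.0108% of all 18472 probes tested, or 2 probes. At an unadjusted p of 0.05, 4 probes passed, both of Musk and 2 of Dach2, against 7.1% of all probes tested. The 2 Dach2 probes were well above background on 1 and 0 of 3 control arrays and entered the test only through db/db muscle, where they were higher, so their passing is no support for a difference. The methods' t-test on the same values passed 5 synapse probes unadjusted, against 8.03% of all probes, and 0 after Benjamini-Hochberg adjustment, against 0.0108%. The groups did not overlap for 4 of the 14 probes, against 10.5% of all probes tested. These were both Musk probes and the second Chrna1 probe, with db/db higher (8.11% of all probes), and Agrn, with db/db lower (2.41%). The median log2 difference over the 14 probes was 0.53, against 0.18 over all probes. With 1 probe per gene it was 0.18, against 0.15 over all genes, and with slide as a block besides 0.068, against 0.12. With 3 against 4 arrays the smallest exact two-sided permutation p is 0.0571, so no single probe could reach 0.05 by that test.

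For Musk, the arrays of db/db muscle lay apart from those of control muscle by both probes, without passing the test. Its first probe read -2.62, -2.56 and -1.57 in soleus control muscle and 0.19, -0.65, -0.18 and -0.93 in db/db muscle. Every db/db array lay above every control array, and the mean was 3.63-fold higher, a log2 difference of 1.86 ± 0.42 (SE, limma adjusted p = 0.396; exact two-sided permutation p = 0.0571). Its second probe read -2.43, -2.88 and -2.64 in control muscle and -0.36, -1.25, -0.78 and -1.43 in db/db muscle, again without overlap. That difference was 1.70 ± 0.36 (SE), or 3.25-fold, with a limma adjusted p of 0.361. Within the first soleus slide the 2 probes differed by 2.36 and 1.85 and within the second slide by 1.02 and 1.54. With slide as a block, which called 0.227% of all probes, the adjusted p was 0.105 and 0.0763. Leaving out each array in turn kept the difference between 1.66 and 2.20 for the first probe and between 1.50 and 1.86 for the second. With normexp the differences were 1.07 and 0.86.

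Dach2, which was dim in C2C12 cells, was measured in soleus. Its first probe read -1.13, -0.38 and -2.36 in control muscle and -0.05, 0.69, -0.67 and -1.66 in db/db muscle, and the groups overlapped (difference 0.87 ± 0.64 SE, limma adjusted p = 0.839). Its second probe read -3.78, -2.94 and -3.20 in control muscle and -1.90, -1.08, -1.98 and -2.99 in db/db muscle (difference 1.32 ± 0.48 SE, limma adjusted p = 0.676), with 1 of 3 control arrays well above background. The remaining probe was not well above background in control muscle (0 of 3 arrays) and was at least 1.85-fold higher in db/db muscle (limma adjusted p = 0.693). For these last probes the highest control array lay above the lowest db/db array. All 3 probes had a positive difference within each of the soleus slides, from 0.72 to 1.87 on the log2 scale. With slide as a block and without db/db replicate 1, an alternative chosen after seeing the data, the probe dim in control muscle passed the test (limma adjusted p = 0.0383), but it was tested only through db/db muscle, where it was higher, and so this call is no support for a difference. No other alternative called a Dach2 probe after adjustment.

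**Figure D5:**
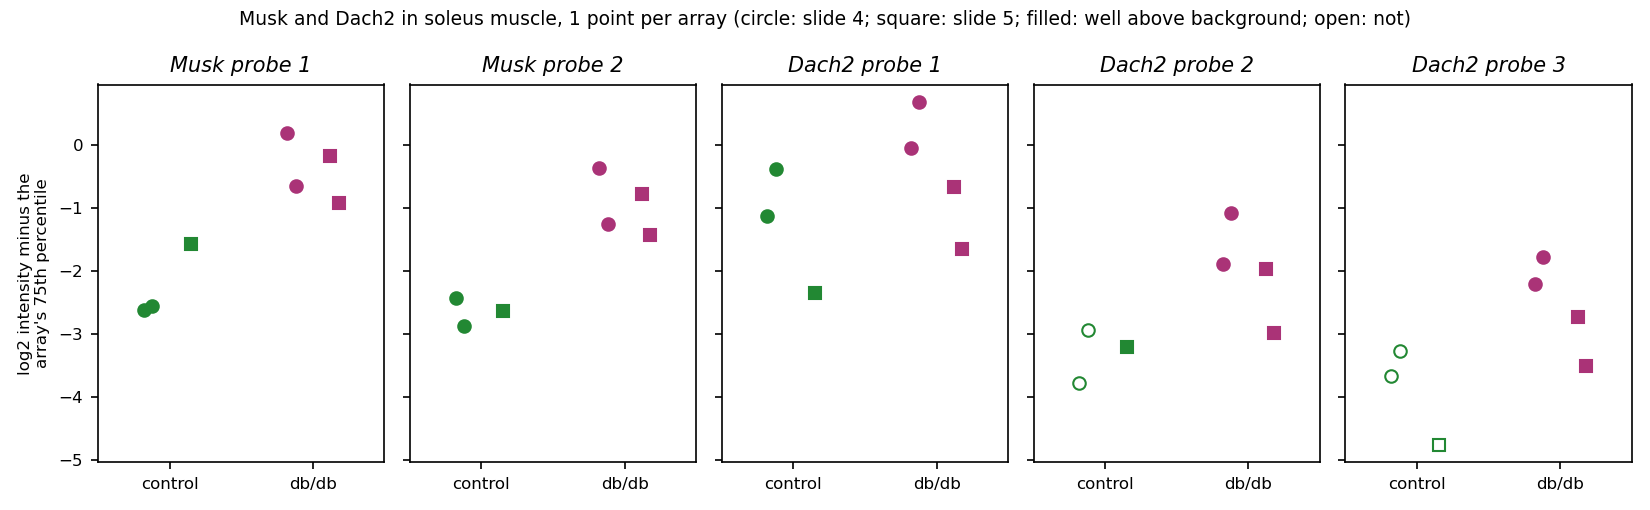
Musk and Dach2 probes in soleus muscle, 1 panel per probe, with the log2 intensity minus the array's 75th percentile on the y axis and 1 point per array, control and db/db on the x axis, and the marker shape giving the slide. All 4 db/db arrays lie above all 3 control arrays for both Musk probes, and for the Dach2 probes the groups overlap.

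Agrn and the receptor subunits did not pass the test either. Agrn read 3.72, 3.73 and 4.06 in control muscle and 2.62, 2.81 and 3.45 in the 3 db/db arrays that kept the spot, db/db replicate 3 having been dropped as an outlier. The groups did not overlap, and the mean was 1.84-fold lower (limma adjusted p = 0.701). The second Chrna1 probe read 1.66, 1.60 and 1.47 in control muscle and 2.00, 1.98, 2.36 and 2.23 in db/db muscle, a 1.48-fold higher mean (limma adjusted p = 0.753). The other tested probes had overlapping groups, with log2 differences of 0.86 (first Chrna1 probe, db/db replicate 1 dropped), 0.50 (Chrnd), 0.38 (Chrng), -0.03 (Chrne, db/db replicate 3 dropped), -0.04 (Chrnb1), -0.13 (Rapsn) and -0.57 (Lrp4), and adjusted p-values from 0.807 to 0.992.

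None of the pathway lists held a called gene in soleus. The tested genes numbered 24 for MuSK and agrin signalling, 11 for the neuregulin and ETS pathway, 21 for the postsynaptic scaffold and 18 for the denervation response, with median log2 differences of 0.16, 0.30, 0.16 and 0.14 beside 0.15 over all 12977 genes and 0.0154% of genes called. At an unadjusted p of 0.05 in limma, 2, 0, 0 and 1 of them passed, against 7.1% of all probes tested. With slide as a block 0 of each list were called, against 0.439% of all genes. Myog read from 2.43 to 3.26 in control muscle and from 1.86 to 2.55 in db/db muscle (difference -0.43, limma adjusted p = 0.95). Hdac4 and Hdac5, each with 1 db/db spot dropped, differed by 0.26 and 0.34, with adjusted p-values of 0.974 and 0.976. Dok7 differed by 0.65 (adjusted p = 0.896). Of the nicotinic subunits outside the muscle receptor, Chrna2 was the one tested, at a difference of 1.97 (adjusted p = 0.832), with 1 of 3 control arrays above background.

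Markers of other cells in soleus were not even across arrays. Of 6 adipocyte markers, 1 was called, against 0.0154% of all genes. This was Lep, the leptin gene, with levels of -3.90 to -3.20 in control muscle and of -0.14 to 0.88 in db/db muscle (limma adjusted p = 0.032). Only 1 of 3 control arrays measured Lep above background. Since it was tested only through db/db muscle, the call is given as a description. With each control array raised to its background limit where it lay below, Lep was 11.0-fold higher. The 6 markers, Lep among them, had a median log2 difference of 0.81, against 0.15 over all genes. In limma 3 of them passed an unadjusted p of 0.05, against 7.1% of all probes tested. Adipoq, Plin1 and Cidec differed by 0.71, 0.90 and 1.38, and Retn and Cfd, the latter the brightest, by -0.22 and -1.73, with adjusted p-values from 0.697 to 0.971. The log2 of the summed adipocyte markers, to which Cfd added most in control muscle, was 7.47, 6.79 and 7.03 in control muscle and 5.92 and 5.99 in db/db replicates 1 and 2, the other db/db arrays having lost a spot. The erythrocyte sum was 9.18 and 8.14 in the 2 control arrays that kept every spot and 8.66, 8.73, 8.43 and 7.96 in db/db muscle. It gives no order, since its Hbb-b1 spot was saturated on all 7 arrays and Hba-a1 on 1 of 2 control and 2 of 4 db/db arrays. The third marker, Alas2, was not saturated and had levels of 1.46 to 4.04 in control muscle and of 0.17 to 2.24 in db/db muscle (difference -1.58, limma adjusted p = 0.831), and a dimmer Hbb-b1 probe had means of 5.04 and 3.48. The Schwann cell sum was 5.06, 5.50 and 5.74 in control muscle and 5.45, 5.11, 5.81 and 6.89 in db/db muscle. Of 6 tested markers 0 were called, also at an unadjusted p of 0.05. Pmp22, the brightest, had means of 5.24 in control and 5.59 in db/db muscle. In the cultured lines, which hold no nerve, its means were 3.68 (C2C12 control cells) and 5.01 (HDAC4 and 5 cells). The sum is therefore no measure of nerve content. Of 4 embryonic muscle markers tested in soleus 0 were called, with a median log2 difference of 0.32. The embryonic myosin Myh3 differed by 1.80 (adjusted p = 0.65), and Myl4 had means of 1.59 in control and 2.56 in db/db muscle. Actc1 went the other way, with means of 2.13 and 1.47, and Myh8 was saturated on all 7 arrays. The part of these values in the Musk and Dach2 differences was not tested.

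Soleus control muscle was lastly set beside C2C12 control cells, to describe adult innervated muscle against cultured myoblasts without a nerve. This comparison uses the C2C12 control arrays of the first comparison and the soleus control arrays of the second. All slides differ between the tissues, so slide and tissue cannot be told apart. Of the 13 synapse probes tested, 10 were called, against 73.9% of all 22559 probes tested. The adult subunit gene Chrne, Lrp4 and Dach2 were higher in soleus (3 probes, against 33.8% of all probes). Chrna1, Chrnb1, Chrnd, Chrng and Rapsn were lower (7 probes, against 40.1%). Dach2 and the second Chrng probe passed the filter only through the tissue where each is high, so these counts are a description. Among the 11 probes well above background on every array of both groups 8 were called, against 73.4% of all such probes. Musk and Agrn did not pass the test. The median was -1.56, against -0.18 over all probes tested. With 1 probe per gene it was -0.75, against -0.039, and with no filter 0.29, against 1.38, so its sign depends on the filter.

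The fetal and adult subunits ran in opposite directions. Chrne rose from a mean of -3.40 ± 0.25 (SD, n = 6) in C2C12 control cells to 0.57 ± 0.55 (SD, n = 3) in soleus control muscle, a 15.7-fold higher mean (limma adjusted p = 1.20e-07). The first Chrng probe went from 3.97 ± 0.17 (SD, n = 6) to levels between -2.85 and -1.53, a 75.7-fold lower mean (limma adjusted p = 5.94e-09), and the second probe, well above background on 0 of 3 soleus control arrays, was at least 7.24-fold lower. Exact two-sided permutation tests gave p = 0.0238 for each of these, the smallest that 6 against 3 allows. The second Chrng probe was tested through C2C12 control cells alone, so its p is a description. The subunits shared by both receptor forms were lower in soleus, Chrnb1 by 1.69 and Chrnd by 2.62 on the log2 scale, and Chrna1 was 8.41-fold lower with its second probe and at least 2.95-fold lower with its first, which was saturated in C2C12 control cells.

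Dach2 was at least 20.2-fold higher in soleus control muscle with its first probe, for which no C2C12 control array was above background, and under normexp the difference was 2.88. Lrp4 was 2.04-fold higher (limma adjusted p = 0.00149) and Rapsn 4.97-fold lower (limma adjusted p = 8.96e-08). Agrn differed by 0.06 ± 0.16 (SE, limma adjusted p = 0.739). The Musk probes differed by 0.25 ± 0.23 and 0.32 ± 0.17 (SE), with adjusted p-values of 0.338 and 0.111. Under normexp, which moved the median of all probes to 0.29, both Musk probes were called higher at 0.77 and 0.86, and under quantile normalisation, which moved it to -0.44, they were -0.25 and -0.29 and not called. Without soleus control replicate 2 the second probe was called at 0.44 (adjusted p = 0.0471), and without replicate 3 the first was -0.09. The direction for Musk therefore depends on the processing and, for the first probe, on which arrays are included. The calls for the other genes were kept under normexp, quantile normalisation and slide as a random block. Dach2 and the second Chrng probe were tested only through the tissue where each is high, so their kept calls are a description.

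Across the 4 groups, the order of levels was alike for several genes and differed for others. The first Chrng probe was highest in C2C12 control cells (mean 3.97), lower in soleus db/db and control muscle, which overlapped, and lowest in HDAC4 and 5 cells. The second Chrna1 probe and Chrnb1 had the same order, with the soleus groups apart for Chrna1 and overlapping for Chrnb1. Chrnd was also highest in C2C12 control cells, and its other 3 groups lay between -3.24 and -0.24 and overlapped. Chrne was highest in both soleus groups, which overlapped, and lowest in both C2C12 lines, which overlapped. Rapsn was highest in C2C12 control cells, and the other 3 groups lay between -0.64 and 0.72. Agrn was highest in HDAC4 and 5 cells, above C2C12 control cells and soleus control muscle, which overlapped, and lowest in db/db muscle. Musk was highest in db/db muscle by both probes, and soleus control muscle overlapped with C2C12 control cells. The lowest Musk levels were those of HDAC4 and 5 cells, which overlapped with C2C12 control cells by the second probe alone. The genes whose brightest probe followed Chrng most closely over 19 arrays, among 12134 genes compared, were Snx18 and Olfm1 (Pearson r = 0.991 for each) and Igf2bp3 (r = 0.987). For Chrne, over the 18 arrays that kept its spot and among 13110 genes, they were Cdkn1c (r = 0.986), Ndufab1 and Zfp783 (r = 0.985 for each). The arrays fall into 4 groups of like samples, and these values describe that grouping.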

How the data were processed

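Total RNA of the 19 samples was hybridised to single-colour mouse whole-genome arrays, which the authors scanned and quantified with Agilent Feature Extraction 9.5.1.1 (per the file headers). The deposited scanner files hold processed intensity values, already background-subtracted by the authors, with spot flags. The authors also deposited a table with a ratio per probe and array, used as an alternative. Of its 19 columns, 15 matched a scanner file within 0.01, 13 of them that of their own sample. The columns of db/db replicates 1 and 2 matched the files of replicates 3 and 4, so the table was used by group only.

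Here control spots and outlier spots were left out, spots of a probe were averaged, and the log2 intensity minus the 75th percentile of each array was used. Probes entered a test when 1 or more of its groups had them well above background throughout. Each comparison was fitted on its own groups over all probes with limma 3.58.1 in R 4.3.3, with Benjamini-Hochberg adjustment and a threshold of 0.05. Single probes were also tested by exact two-sided permutation (scipy 1.17.1). Scripts were tested on simulated data. A probe with saturated spots in its bright group, or well above background on no array of its dim group, is given as a bound. Where only some arrays of the dim group measured a probe, their number is given. A bound compares the bright group's mean with the mean of, per array, the higher of the dim probe's own signal and the lowest signal among probes well above background.

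Alternatives were normexp with an offset of 50, quantile normalisation, no filter, a stricter filter, 1 probe per gene, the methods' t-test, slide and replicate blocks, the deposited table, and each soleus array left out. The study's methods give 3 biological replicates per group, the labels 6 separate samples per line, 2 per slide. Whether those 2 share a culture is not given in the sources used here, so averaging them was added as an alternative after seeing the data. Same-numbered arrays deviated together (r = 0.228 to 0.584 in C2C12, 0.371 to 0.661 in soleus), as did arrays that shared a slide under other numbers (0.202 to 0.544 and 0.269 to 0.731), and the replicate number could not be separated from the slide. Replicates correlated at 0.912 to 0.993, and no array was a copy of another. The 10 genes, the pathway lists and the marker lists were chosen with earlier results of these data known. All probes of the 10 genes are named, with up to 3 called genes that rose and 3 that fell per pathway list, Hdac4, Hdac5, Myod1 and Myog, the brightest marker of a cell type, and the 3 genes most like Chrng and Chrne. Other genes named beside these, such as Ache, Colq, Des, Dcn, Lep and Myh3, were chosen after their values were seen. Probe names come from the scanner files. They differed between versions of the array design for 3210 probes, none of them a probe of the 10 genes. Some genes that this rule names are not reported here.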

Additional observations from a re-analysis of the deposited data

Results flagged for a closer look

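The third Dach2 probe had 1 array far from the rest of its group. In HDAC4 and 5 cells, replicate 4 read -3.85 and was well above background, while the nearest of the other 5 arrays read -6.94, a gap of 0.723 of the whole range of the group by Dixon's ratio. Neither of the other Dach2 probes was bright enough to be tested in these cells. Of the 51 groups of probes and arrays examined this way this was the single one past the limit, where chance gives about 1 in 20. The cause was not tested.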

How the results depend on the processing

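For single probes and pathway lists, 778 values under the alternatives kept their direction and their side of the threshold or moved by less than the spread. Of the others, 30 moved by more, 24 changed direction and 4 newly passed the test. The 2 Musk probes lost their call in C2C12 cells under normexp, 1 of them among those that changed direction. With the stricter filter, which tests fewer genes, 9 in place of 15 denervation genes were called in C2C12 cells, where 66.1% of all probes tested were called. The C2C12 count of 14212 called probes fell to 9332 with 1 probe per gene, which tests fewer probes, and was 16204 with the replicate block, which left 11 synapse probes called. With C2C12 arrays averaged per slide, chosen after seeing the data, it was 11572 with 11 synapse probes called, and the tissue count was 14040 with 10. In soleus the count of 2 called probes became 0 with normexp, with the stricter filter and with the deposited table, 1 without a filter and with the replicate block, 42 with the slide block and 57 with the slide block and 1 probe per gene. It became 1483 by the methods' t-test without adjustment and 1312 by limma without adjustment. Leaving out 1 array gave 0 to 1, and with the slide block 1 to 149, with 149 without db/db replicate 1, 67 without control replicate 3, 29 without db/db replicate 2, and 1 without control replicate 2 or db/db replicate 3. Without control replicate 1 or 2 or db/db replicate 3 and with no block it was 0. The count of 0 called synapse probes in soleus became 5 by the methods' t-test and 4 by limma, both without adjustment, and 1 with the slide block without db/db replicate 1, the third Dach2 probe, which was above background on 0 of 3 control arrays and was tested only through db/db muscle. It stayed 0 with the replicate block. The tissue count of 16665 became 32491 without a filter, which tests more probes. In C2C12 cells the Musk probes under normexp were -0.01 and 0.13. In soleus, uncalled values changed sign. With the deposited table Chrnb1 was 0.094 and Chrne 0.38. With the slide block the first Chrna1 probe was -0.15 without control replicate 3, and Chrne was 0.16 without control replicate 2 and 0.051 without db/db replicate 1. Leaving out 1 array, the ranges were -0.15 to 0.11 for Chrnb1 (0.12 with the slide block), -0.022 to 1.03 for Chrnd (-0.038 with the slide block), -0.40 to 0.24 for Chrne and -0.33 to 0.13 for Rapsn (0.25 with the slide block). Between tissues the Musk probes were -0.25 and -0.29 with quantile normalisation and 0.77 and 0.86 with normexp. With 1 control array left out the first ranged from -0.087 to 0.43 and the second from 0.21 to 0.44. Agrn was -0.12 with quantile normalisation, -0.16 with normexp and -0.049 to 0.12 with 1 control array left out. Except where fewer or more probes tested is named, the cause was not tested. Signal over background limits every value of Dach2 in C2C12 cells and of Chrng, Lrp4 and Myog in HDAC4 and 5 cells.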

Other observations

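Among the 11 nicotinic receptor subunits that belong to neuronal rather than muscle receptors, 1 was bright enough to be tested, in soleus. Chrna2 was detected over background in 1 of 3 control muscles and in 4 of 4 db/db muscles, with levels of -6.02, -4.60 and -2.65 in control muscle and between -3.74 and -1.21 in db/db muscle. Its difference of 1.97 ± 0.93 (SE) did not pass the test (limma adjusted p = 0.832, and 0.0633 with slide as a block), and the groups overlapped. Chrna9 was detected in 2 of 3 control and 3 of 4 db/db muscles and was not tested. In C2C12 cells Chrna4 was detected on 2 of 6 control arrays and on 0 of 6 HDAC4 and 5 arrays. Chrna6, Chrna7, Chrnb2, Chrnb3 and Chrnb4 were detected on 0 of 19 arrays.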
